A study of Homo sapiens with 12 samples.

Results

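Oxidative phosphorylation is carried out by 5 protein complexes of the inner mitochondrial membrane, and the transcripts of their nuclear-encoded subunits are described here in 2 human prostate cancer cell lines, DU145 and PC3. Members were taken by gene symbol: every row whose symbol began with NDUFA, NDUFB, NDUFC, NDUFS or NDUFV and a digit, with UQCR, with COX and a digit from 4 to 8, or with ATP5, together with SDHA, SDHB, SDHC and SDHD. This gave 87 of the 18950 rows, and no pseudogene symbol had to be dropped. Of these, 82 were subunit genes, 36 for complex I, 4 for complex II, 9 for complex III, 15 for complex IV and 18 for complex V. NDUFA4 and NDUFA4L2 were placed with complex IV, where the NDUFA4 protein is found. The ATP5 symbols include ATP5S and ATP5SL, whose proteins are not structural subunits of complex V. The other 5 rows were antisense or readthrough transcripts (NDUFA6-AS1, NDUFB2-AS1, NDUFV2-AS1, NDUFC2-KCTD14 and ATP5J2-PTCD1) and are left out of the counts per complex.

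Complex I passes electrons from NADH, and complex II from succinate, to ubiquinone. Complex III hands them on to cytochrome c, complex IV to oxygen, and complex V uses the proton gradient built by complexes I, III and IV to make ATP. Complex II is encoded by nuclear genes alone and is also an enzyme of the tricarboxylic acid cycle, whereas the other complexes combine nuclear subunits with core subunits made from mitochondrial DNA. The mitochondrially encoded genes had 0 rows in the table.

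The 12 libraries formed 4 groups of 3: DU145 GFP+, DU145 GFP-, PC3 GFP+ and PC3 GFP-. DU145 and PC3 are established lines that were grown from metastases of prostate carcinoma. Per the labels, GFP reports Wnt activity, GFP+ stands for the brightest 10% of a line's sorted cells and GFP- for the dimmest 10%. All 4 groups were grown in DMEM with 10% FBS, and no other agent is named. The labels do not name the reporter construct, nor say whether a line was 1 clone or a mixed population, nor whether replicates are independent cultures. The p-values therefore measure only the spread between these libraries, which may be technical. Since RNA was taken from sorted bulk cells, fewer cells expressing a gene and less RNA per cell cannot be told apart.

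Levels are in CPM, the count scaled by the library's total as the authors set it, and the libraries held 13453614 to 21528810 estimated counts. The members took 0.836% to 1.13% of a library's counts. Of the epithelial markers, KRT18 lay between 338 and 2023 CPM and KRT8 between 16.2 and 2896 CPM, while EPCAM had 9 counts and CDH1 34 counts over all 12 libraries together, so that 2 of the 4 epithelial markers were at or near 0. KLK3, a luminal prostate marker, had 2 counts over the 12 libraries. Markers of leukocytes (PTPRC), endothelium (PECAM1), fibroblasts (LUM), muscle (DES, MYH7, ACTA1) and germ cells (DAZL) had 1 to 7 counts each over the 12 libraries. Some libraries stood apart from the others of their line in the balance of GC-poor and GC-rich genes. Across 12510 genes, the correlation of GC content with a gene's deviation from its line's mean (Spearman's rho, over genes that share a library) was -0.66 and -0.62 in DU145 GFP+ replicates 1 and 2, against 0.20 in GFP+ replicate 3 and 0.19 to 0.66 in the DU145 GFP- libraries. In PC3 it was -0.12, 0.13 and -0.29 in the GFP+ libraries, against -0.20, 0.59 and -0.41 in GFP- replicates 1, 2 and 3. Their part in the results below was not tested. Members' values are given with and without DU145 GFP+ replicates 1 and 2 and PC3 GFP- replicates 2 and 3. Each of these fits leaves a single library in a group, so effect sizes are given from it.

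**Figure D1:**
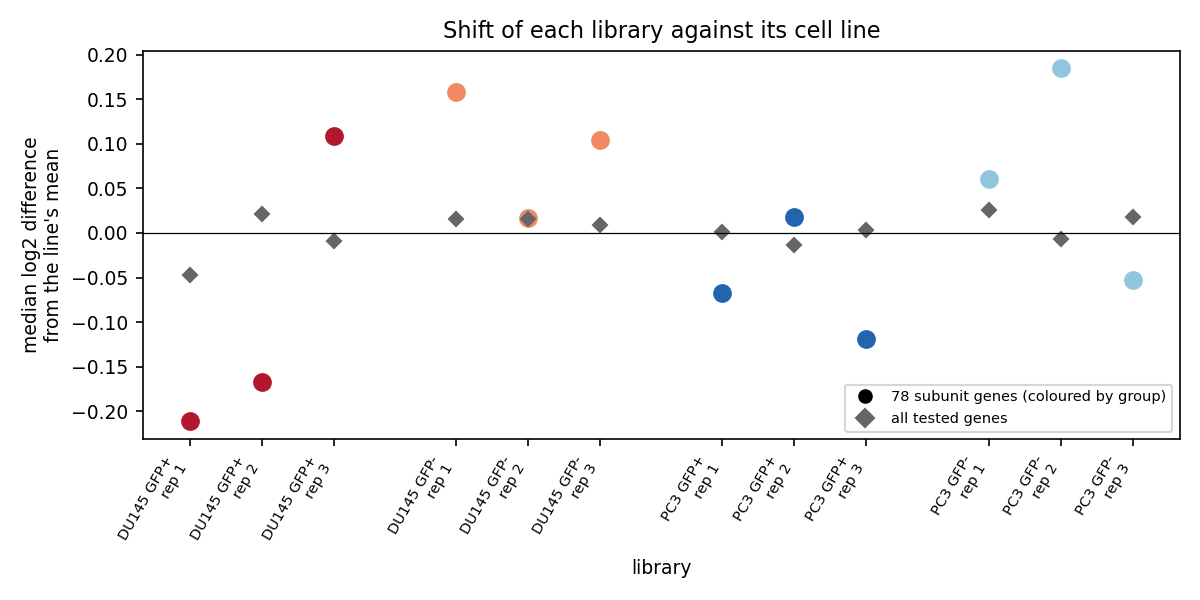
Median difference of each library from the mean of its cell line (vertical axis, log2 units), for the 78 subunit genes that passed the minimum level (circles, coloured by group) and for all tested genes (grey diamonds). The subunit genes lay lowest in DU145 GFP+ replicates 1 and 2 (-0.21 and -0.17) and highest in PC3 GFP- replicate 2 (0.18) and DU145 GFP- replicate 1 (0.16), while the medians of all genes stayed between -0.048 and 0.026.

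Of the 87 members, 81 reached 1 CPM in at least 3 of the 12 libraries and were tested among 12527 genes in all. The test was limma on the log2 values over 4 group means, two-sided, with Benjamini-Hochberg adjustment and a threshold of 0.05. Fold changes are on the log2 scale of the deposited values with their standard errors, and every adjusted p below comes from this limma test. The 6 members below the minimum were COX6B2, COX7A1, NDUFA4L2, ATP5L2, NDUFV2-AS1 and NDUFC2-KCTD14. COX4I2, COX6A2, COX7B2 and COX8C, tissue-specific forms of complex IV subunits, are not analysed here.

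Between the lines, SDHA, the flavoprotein that oxidizes succinate, stood far from every other member. It was 2.97 log2 units higher in DU145, and the next largest difference upward was that of NDUFA3, at 0.99. Downward, NDUFA5, an accessory subunit of complex I, differed by -1.85 log2 units (DU145 over PC3), followed by ATP5F1 at -0.94. In all, 47 of 81 members (58.0%) passed the threshold between DU145 and PC3, 27 higher and 20 lower in DU145. Over all tested genes 77.5% passed, 38.3% higher and 39.2% lower, so a smaller share of the members than of all genes differed. SDHA and NDUFA5 were the members past the threshold that differed by 1 log2 unit or more. Line, culture and library preparation cannot be told apart in this comparison.

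By complex, complex I was split, with 11 members higher and 12 lower in DU145 of 36 tested. Complex II had 2 higher (SDHA, SDHC) and 1 lower (SDHD) of 4, and complex III 2 higher (UQCRFS1, UQCRC1) and 3 lower (UQCRB, UQCRH, UQCRC2) of 9. Complex IV had 5 higher and 1 lower (COX7B) of 12, and complex V 6 higher and 3 lower (ATP5F1, ATP5E, ATP5H) of 17. The median difference over the 78 subunit genes was 0.079 log2 units, against -0.011 over all genes. Over the 81 members the median was 0.082, against 0.17 without DU145 GFP+ replicates 1 and 2 and 0.077 without PC3 GFP- replicates 2 and 3. The balance of the 2 directions depended on the scaling. With the libraries set to equal medians, which moved the median of all genes to 0.13, 40 members were called higher and 15 lower, and with the GC and length trend removed against the mean of all 12 libraries, which moved it to -0.15, 24 were higher and 35 lower. Of the 47 calls, 32 (19 higher, 13 lower) stayed past the threshold under each of the 27 alternative settings that were run for this comparison.

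**Figure D2:**
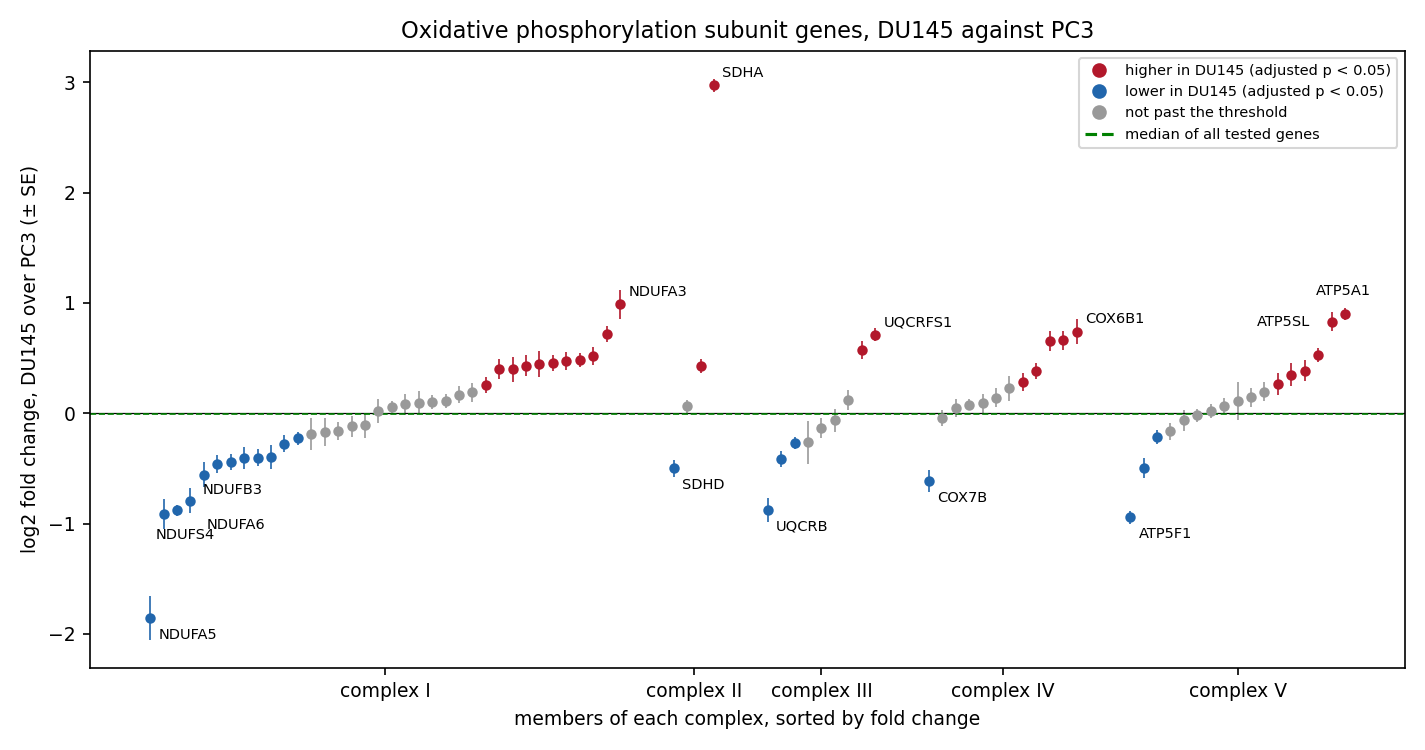
Log2 fold change of DU145 over PC3 (vertical axis, ± SE) for the 78 subunit genes above the minimum level, sorted within complexes I to V along the horizontal axis. Red points passed the threshold higher in DU145, blue points lower, and the dashed line is the median of all tested genes. SDHA lies alone at 2.97 and NDUFA5 alone at -1.85, while the other members lie between -0.94 and 0.99.

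The 250 bases before the RefSeq start (GRCh38.p14) are shown for 4 genes on which the comparisons turn: SDHA and NDUFA5, which differed most between the lines, and NDUFA9 and NDUFB1, whose response to the sort differed between the lines. Capitals mark matches to the motif of NRF1, a transcription factor known for binding promoters of respiratory chain genes (GCGCA, any base, GCGC, on either strand).
SDHA: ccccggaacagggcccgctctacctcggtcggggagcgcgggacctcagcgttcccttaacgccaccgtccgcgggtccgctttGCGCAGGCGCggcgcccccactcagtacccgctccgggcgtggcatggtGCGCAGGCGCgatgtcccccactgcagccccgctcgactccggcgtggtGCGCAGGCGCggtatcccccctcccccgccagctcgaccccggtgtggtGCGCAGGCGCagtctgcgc
NDUFA5: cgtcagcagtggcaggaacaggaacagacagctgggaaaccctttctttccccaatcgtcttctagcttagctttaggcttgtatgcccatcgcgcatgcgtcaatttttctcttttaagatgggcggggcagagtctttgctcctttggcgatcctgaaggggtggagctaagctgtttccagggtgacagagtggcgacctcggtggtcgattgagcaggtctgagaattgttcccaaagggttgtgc
NDUFA9: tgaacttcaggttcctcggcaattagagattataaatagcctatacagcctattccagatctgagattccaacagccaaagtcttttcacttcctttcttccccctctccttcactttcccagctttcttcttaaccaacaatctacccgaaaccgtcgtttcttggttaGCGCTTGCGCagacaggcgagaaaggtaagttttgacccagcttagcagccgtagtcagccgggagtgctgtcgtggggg
NDUFB1: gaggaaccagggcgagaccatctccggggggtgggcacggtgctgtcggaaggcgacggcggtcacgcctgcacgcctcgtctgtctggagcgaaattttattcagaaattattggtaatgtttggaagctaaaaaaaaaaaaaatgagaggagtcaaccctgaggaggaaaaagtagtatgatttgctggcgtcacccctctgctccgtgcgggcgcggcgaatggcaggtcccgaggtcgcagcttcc
The SDHA sequence is chr5:218070-218319 on the plus strand, NDUFA5 chr7:123557819-123558068 on the minus strand, NDUFA9 chr12:4648864-4649113 on the plus strand and NDUFB1 chr14:92121707-92121956 on the minus strand. SDHA held 4 NRF1 motifs, which began 166, 117, 68 and 19 bases before the start and so repeated every 49 bases. NDUFA9 held 1, beginning 80 bases before the start, and the NDUFA5 and NDUFB1 windows held none of the 4 motifs searched.

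Promoters were found in the RefSeq table for 70 of the 87 members, among them 66 subunit genes. The NRF1 motif was in 13 of these 66 (19.7%), against 5.545% of all 27305 promoters in the table. CCGGAAG, the core bound by ETS factors such as GABPA, was in 16 of 66 (24.2%), against 8.83% of all. The YY1 motif (AA, any base, ATGGCG) was in 2 of 66 (3.03%), against 1.41% of all. CTTTGAT followed by any base, the core bound by the TCF/LEF partners of β-catenin, was in 0 of 66, against 2.27% of all. NRF1 motifs were in 5 of 31 promoters of complex I, 2 of 3 of complex II (SDHA, SDHD), 3 of 7 of complex III (UQCR11, UQCRC1, UQCRFS1), 0 of 13 of complex IV and 3 of 12 of complex V. Each motif was searched on both strands, and a match describes the letters only.

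In DU145, most subunit genes lay slightly lower in GFP+ than in GFP- cells, few passed the threshold, and the shift rested on particular libraries. The median log2 fold change over the 78 subunit genes was -0.21, against -0.0074 over all genes, and 62 of the 78 lay below 0. Of the 81 members 9 passed (11.1%), against 27.1% of all genes. UQCRB, SDHD and ATP5F1 rose (13.1% of all genes rose), and 6 members, among them NDUFA6, NDUFA9, NDUFS6, ATP5B and SDHB, fell (13.9% of all genes fell). In 12 members (14.8%) the 3 GFP+ and 3 GFP- libraries did not overlap, against 40.5% of all genes. Without DU145 GFP+ replicates 1 and 2, which leaves GFP+ replicate 3 alone, the median over the 81 was 0.039, against -0.20 with all libraries. Without PC3 GFP- replicates 2 and 3 it stayed at -0.20, as PC3 libraries enter only the estimate of the spread. With the libraries set to equal medians, which moved the median of all genes to -0.10, there were 0 higher and 12 lower calls (28.9% of all genes called).

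Leaving out 1 library at a time gave 1 to 41 calls in DU145. There was 1 call without GFP+ replicate 1 (7.15% of all genes called) and without GFP- replicate 1 (10.6%) or 3 (7.71%). There were 2 without GFP+ replicate 2 (8.51%). Without GFP+ replicate 3 there were 41 (4 higher, 37 lower), 50.6% of the members against 44.7% of all genes, so the calls over all genes swung as well. Leaving out a PC3 library changes only the shared estimate of the spread here. It gave 17 calls without GFP- replicate 2 (34.1% of all genes called) and 12 without GFP- replicate 3 (28.8%). There were 5 without each of the other 4 (21.9% to 24.4%). The fold changes followed GC content, with a Spearman's rho of -0.64 over 12510 genes and -0.57 over the 78 subunit genes, a description in which all points share the same libraries. The 9 subunit genes below 42.1% GC had a median of 0.18, and the 10 above 59.0% GC one of -0.30. With the GC and length trend removed, 24 members were called, 1 higher (ATP5S) and 23 lower, against 23.1% of all genes, and 10 of the 36 complex I genes, 2 of 4 in complex II, 1 of 9 in complex III, 5 of 12 in complex IV and 5 of 17 in complex V were among the lower ones. UQCRB, SDHD and ATP5F1 were then no longer called, at log2 fold changes of 0.15, 0.26 and 0.022. The median over the 81 members was then -0.18, against -0.059 over all genes, and 70 of the 81 lay below 0.

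**Figure D3:**
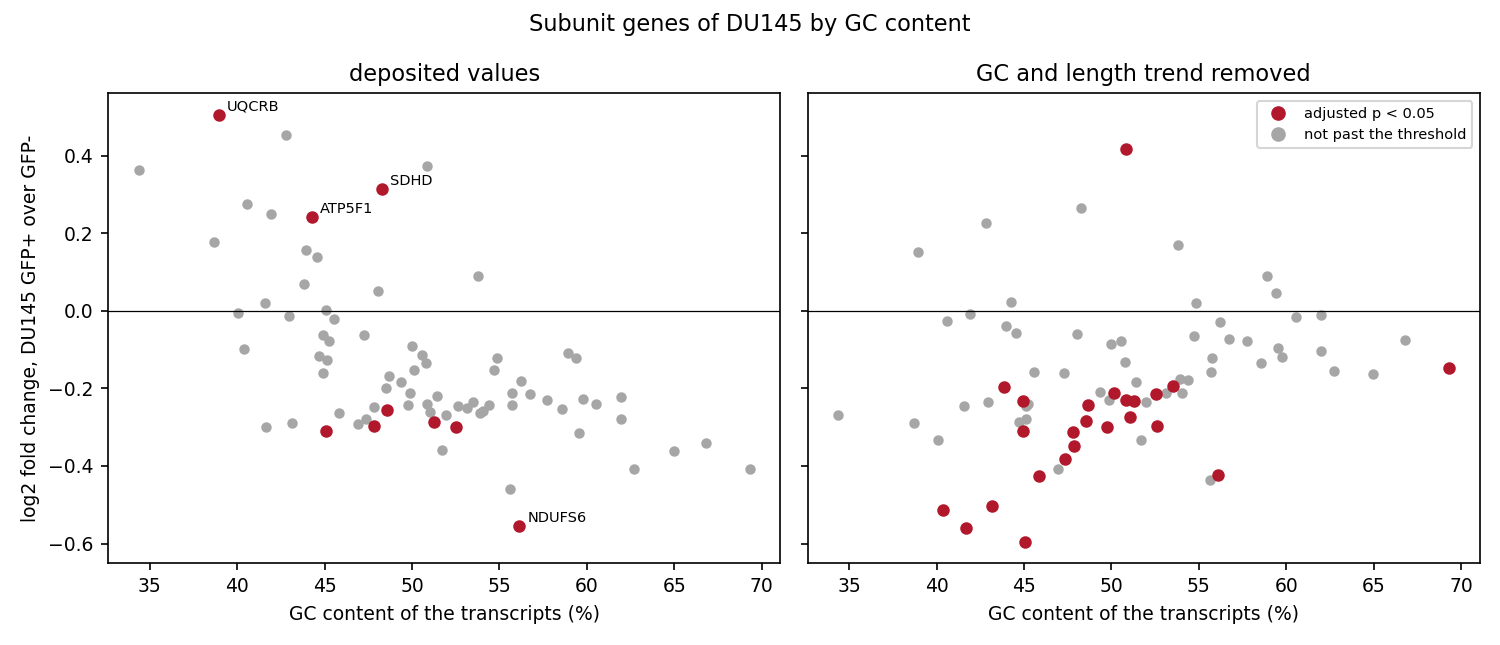
Log2 fold change of DU145 GFP+ over GFP- (vertical axis) against the GC content of the gene's transcripts (horizontal axis, percent) for the 78 subunit genes, from the deposited values (left) and with the GC and length trend removed (right). Red points passed the threshold. On the left 3 red points lie above 0 (UQCRB, SDHD, ATP5F1) and 6 below; on the right 1 lies above and 23 below.

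In PC3 the subunit genes also lay mostly lower in GFP+ cells. The median log2 fold change was -0.14, against -0.022 over all genes, and 68 of 78 subunit genes lay below 0. NDUFB1, ATP5H and NDUFB9 fell and none of the 81 members rose. This was 3 of 81 (3.70%), against 9.44% of all genes, of which 4.17% rose and 5.27% fell. In 24 members (29.6%), each time with the GFP+ libraries lower, the groups did not overlap, against 30.4% of all genes. Without PC3 GFP- replicates 2 and 3, which leaves GFP- replicate 1 alone, the median over the 81 was -0.12. Without GFP- replicate 2 alone the median was -0.055, with 58 of 81 below 0. Without DU145 GFP+ replicates 1 and 2 the median over the 81 was -0.14, as with all libraries. Leaving out 1 library gave 1 to 6 calls. There was 1 call without GFP+ replicate 1 (5.27% of all genes called) or 3 (6.33%) and 5 without GFP- replicate 3 (9.48%). There were 6 without DU145 GFP+ replicate 3 (11.9%), which shares in the estimate of the spread. With the GC and length trend removed, 5 were lower (NDUFB1, NDUFB9, NDUFB11, NDUFS8 and ATP5H), or 6.17% of the members against 19.1% of all genes. The median over the 81 members was then -0.032.

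**Figure D4:**
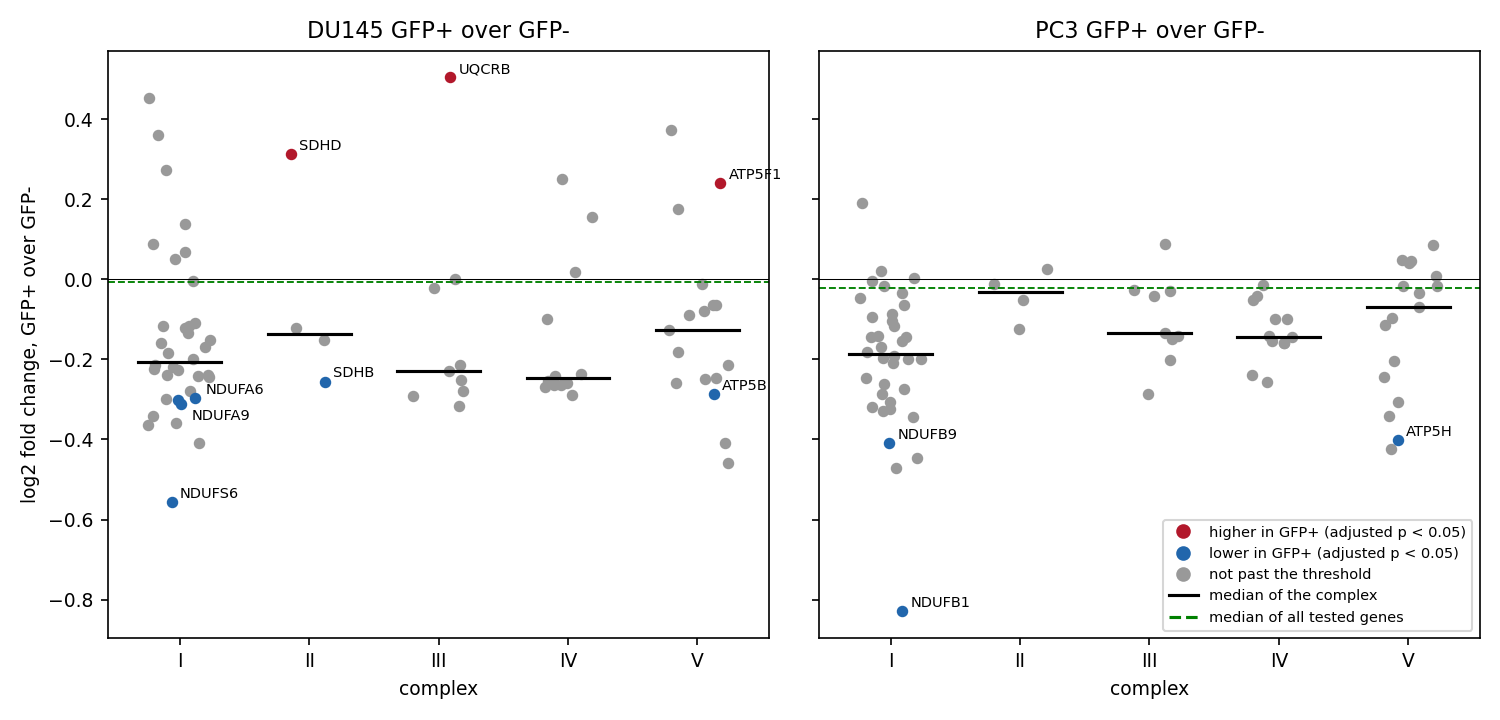
Log2 fold change of GFP+ over GFP- (vertical axis) for the 78 subunit genes by complex (horizontal axis), in DU145 (left) and PC3 (right). Red points passed the threshold higher in GFP+, blue points lower, black bars are medians of a complex and the dashed line is the median of all tested genes. The black bars lie between -0.25 and -0.13 in DU145 and between -0.19 and -0.032 in PC3, and in both lines most points lie below 0.

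The difference between the sort effects, DU145 minus PC3, passed the threshold for 2 of 81 members (2.47%), against 15.9% of all genes. NDUFB1 was higher (7.06% of all genes were) and NDUFA9 lower (8.82% of all genes were). The median difference over the 78 subunit genes was -0.034, and its sign depended on the libraries. Over the 81 members it was -0.031 in the same fit, 0.16 without DU145 GFP+ replicates 1 and 2, with 15 below 0, and -0.16 with equal medians. With the GC and length trend removed, 13 members passed, 2 higher and 11 lower. Without PC3 GFP- replicates 2 and 3 the median difference over the 81 was -0.059. Leaving out 1 library gave 1 to 10 calls. There was 1 without DU145 GFP- replicate 3 (9.19% of all genes called) or PC3 GFP+ replicate 2 (9.14%). There were 5 without PC3 GFP- replicate 2 (26.8%) and 10 without DU145 GFP+ replicate 3 (29.2%). Without DU145 GFP+ replicates 1 and 2 the NDUFB1 difference was 1.15. It was 0.75 with equal medians (limma adjusted p = 0.0537) and 0.61 under quantile normalization (adjusted p = 0.146).

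NDUFB1, a small subunit of the membrane arm of complex I on chromosome 14, had 8.45, 8.78 and 7.30 CPM in PC3 GFP+ cells, against 14.6, 16.2 and 12.8 CPM in PC3 GFP- cells. Every PC3 GFP+ library lay below every GFP- library. In DU145 it had 14.2, 12.4 and 17.7 CPM in GFP+ cells and 15.4, 14.3 and 12.7 CPM in GFP- cells, which overlap. Its log2 fold change was -0.83 ± 0.16 (SE; adjusted p = 0.00500) in PC3 and 0.052 ± 0.16 (adjusted p = 0.828) in DU145, and the difference was 0.88 ± 0.23 (adjusted p = 0.0202). The PC3 fall stayed past the threshold in 26 of 27 alternatives. The exception was the fit without PC3 GFP- replicates 2 and 3, which leaves GFP- replicate 1 alone, and there the fold change was -0.84.

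NDUFA9, a nucleotide-binding accessory subunit of complex I, had 84.3, 93.3 and 99.4 CPM in DU145 GFP+ cells, against 121, 111 and 111 CPM in DU145 GFP- cells, with no overlap. In PC3 it had 104, 106 and 95.3 CPM in GFP+ cells and 90.5, 96.8 and 80.7 CPM in GFP- cells, where the groups overlap. The log2 fold change was -0.31 ± 0.088 (adjusted p = 0.0239) in DU145 and 0.19 ± 0.088 (adjusted p = 0.219) in PC3, a difference of -0.50 ± 0.12 (adjusted p = 0.0179). Without DU145 GFP+ replicates 1 and 2 the difference was -0.39, and with the GC and length trend removed it was -0.74 (adjusted p = 0.00909).

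**Figure D5:**
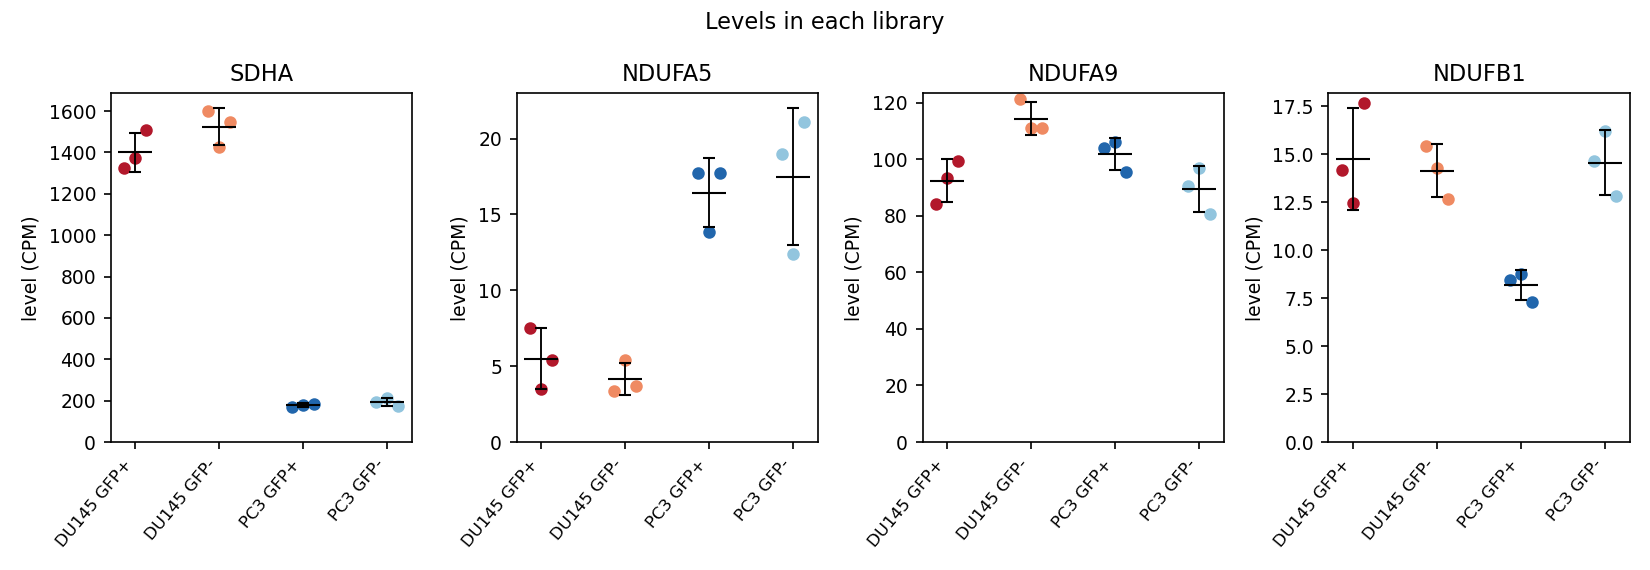
Level of SDHA, NDUFA5, NDUFA9 and NDUFB1 in each library (vertical axis, CPM, from 0), by group along the horizontal axis. Points are libraries, and horizontal bars with whiskers are the mean ± SD of 3. SDHA separates the lines in every library, NDUFA5 separates them the other way, NDUFA9 is lower in DU145 GFP+ than in DU145 GFP-, and NDUFB1 is lower in PC3 GFP+ than in the other groups.

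Complex I holds 7 nuclear-encoded core subunits, among them those that carry the flavin and the iron-sulfur centres, and 29 accessory genes measured here. Between the lines, 4 of the 7 core subunits were higher and 1 (NDUFS1) lower in DU145, with a median of 0.40. The accessory genes had 7 higher and 11 lower of 29 and a median of -0.12. Over all genes 77.5% passed, 38.3% higher and 39.2% lower, and 7 genes are few. With the trend in GC content and length removed against all 12 libraries, NDUFV1 and NDUFS1 changed sign.

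NDUFV1, which binds NADH and flavin, averaged 285 ± 42.5 CPM in DU145 and 212 ± 35.6 CPM in PC3 (SD, n = 6 each). NDUFV2, its iron-sulfur partner, averaged 138 ± 12.8 and 98.7 ± 6.04 CPM in the same order, and its difference of 0.48 stayed past the threshold in all 27 alternatives. NDUFS1, the largest core subunit, averaged 141 ± 10.5 CPM in DU145 and 165 ± 8.54 CPM in PC3, a log2 difference of -0.23 (adjusted p = 0.00256).

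NDUFA5 was the accessory subunit with the largest difference between the lines in the deposited values. It ranged over 3.36 to 7.54 CPM (median 4.56) in DU145, against 12.4 to 21.1 CPM (median 17.8) in PC3, so the highest DU145 library lay below the lowest PC3 library (log2 fold change -1.85 ± 0.20, adjusted p = 1.44e-06). Per kilobase of transcript its level was 0.049 of that of NDUFS1 in DU145 and 0.14 in PC3. NDUFA6 ranged over 46.8 to 59.1 CPM (median 52.4) in DU145, against 91.1 to 102 CPM (median 96.0) in PC3 (-0.88 ± 0.050, adjusted p = 2.34e-09). NDUFS4, needed for stable assembly of the NADH-binding module, ranged over 5.17 to 10.2 CPM (median 8.78) in DU145 and 13.3 to 18.2 CPM (median 15.8) in PC3 (-0.91 ± 0.14, adjusted p = 3.44e-05). NDUFB3, of the membrane arm, averaged 11.7 ± 1.86 CPM in DU145 and 20.0 ± 1.84 CPM in PC3 (-0.79 ± 0.11, adjusted p = 2.02e-05). These 4 accessory genes were lower in DU145 and past the threshold in all 27 alternatives. With the GC and length trend removed against all 12 libraries, NDUFA5 was at -0.76 and NDUFA6 at -0.82, so that NDUFA5 no longer had the largest difference. In the other direction NDUFA3, chosen after its value was seen, averaged 27.2 ± 4.92 CPM in DU145 and 13.7 ± 2.62 CPM in PC3 (0.99 ± 0.13, adjusted p = 1.11e-05).

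Between the DU145 sorts, NDUFA6 fell with little spread. It had 46.8, 46.9 and 47.9 CPM in GFP+ cells, against 56.9, 59.1 and 57.9 CPM in GFP- cells, tight groups that did not overlap. Its log2 fold change of -0.30 ± 0.071 (adjusted p = 0.0123) stayed under an adjusted p of 0.05 in 27 of 28 alternatives. The exception was the fit without GFP+ replicates 1 and 2, where the fold change was -0.28. One of the 28 is the main fit at a threshold of 0.01, which NDUFA6 did not pass and which is counted here at 0.05. In PC3 it averaged 96.4 ± 4.71 CPM in GFP+ cells and 96.6 ± 4.98 CPM in GFP- cells (SD, n = 3 each), with overlap. Its antisense neighbour NDUFA6-AS1 averaged 6.51 ± 1.13 CPM in DU145 GFP+ cells and 7.26 ± 0.497 CPM in DU145 GFP- cells (SD, n = 3 each), and as no strand setting is given in the sources used here, reads of the pair cannot be told apart. NDUFS6, a zinc-binding accessory subunit, had 50.2, 47.0 and 74.0 CPM in DU145 GFP+ cells, against 85.9, 76.8 and 84.2 CPM in DU145 GFP- cells. GFP+ replicates 1 and 2 lay well below the other 4 libraries, and the fold change of -0.56 ± 0.17 (adjusted p = 0.0296) was -0.15 without them. In PC3, NDUFB9 had 130.3, 136 and 126 CPM in GFP+ cells, against 172, 202 and 150.4 CPM in GFP- cells, with no overlap (-0.41 ± 0.12, adjusted p = 0.0477). The NDUFB9 fall was past the threshold in 14 of 28 alternatives. Without GFP- replicates 2 and 3 its fold change was -0.40.

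In complex II, SDHA set the lines apart. It ranged over 1323 to 1600 CPM (median 1466) in DU145, against 169 to 214 CPM (median 183) in PC3. The lowest DU145 library exceeded the highest PC3 library several times over (log2 fold change 2.97 ± 0.060, adjusted p = 1.03e-13; 2.56 to 3.12 over the alternatives). Per kilobase, SDHA ranked 2 of the 82 subunit genes in DU145, at 694 CPM per kb, and 42 in PC3, at 88.4 CPM per kb. Its estimated counts were whole in all 12 libraries. Summed over the complex, the level was 1761 ± 120 CPM in DU145 GFP+ and 1920 ± 95.8 CPM in DU145 GFP-, against 524 ± 16.3 CPM in PC3 GFP+ and 545 ± 42.4 CPM in PC3 GFP-. Without SDHA the sums were 360 ± 28.3, 397 ± 6.56, 346 ± 15.9 and 350 ± 22.4 CPM in the same 4 groups, which overlap between the lines except for DU145 GFP-.

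SDHB, the iron-sulfur subunit that takes electrons from SDHA, averaged 170.2 ± 19.6 CPM in DU145 and 162 ± 8.42 CPM in PC3, a log2 difference of 0.064 ± 0.060 (adjusted p = 0.342). Per kilobase, the ratio of SDHA to SDHB was 4.73 ± 0.346 in DU145 and 0.629 ± 0.0385 in PC3 (SD, n = 6 each). The membrane anchors differed in opposite directions, SDHC with 161 ± 15.1 CPM in DU145 and 119.6 ± 8.32 CPM in PC3 (0.43 ± 0.065, adjusted p = 3.99e-05), and SDHD with 47.4 ± 7.41 CPM in DU145 and 66.2 ± 2.53 CPM in PC3 (-0.50 ± 0.077, adjusted p = 4.55e-05). Between the DU145 sorts SDHB had 137, 158 and 172 CPM in GFP+ cells, against 186, 185 and 183 CPM in GFP- cells, with no overlap (-0.26 ± 0.084, adjusted p = 0.0403; -0.10 without GFP+ replicates 1 and 2). The SDHB fall was past the threshold in 14 of 28 alternatives. SDHD had 53.8, 53.3 and 49.6 CPM in GFP+ cells, against 37.0, 51.4 and 39.1 CPM in GFP- cells. GFP- replicate 2 overlapped the GFP+ libraries, and the rise (0.31 ± 0.11, adjusted p = 0.0480) was past the threshold in 9 of 28 alternatives. Without GFP+ replicates 1 and 2 the rise was 0.24. In PC3 no complex II gene passed between the sorts, with log2 fold changes of -0.12 to 0.027.

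In complex III the Rieske iron-sulfur protein and a core protein were higher in DU145, and the ubiquinone-binding subunit was lower. UQCRFS1, the Rieske protein, ranged over 139.8 to 174 CPM (median 153) in DU145, against 89.3 to 99.4 CPM (median 93.7) in PC3, with no overlap (0.71 ± 0.058, adjusted p = 8.38e-08). Its estimated counts were fractional in 11 of 12 libraries, and its level is uncertain to that extent. UQCRC1 averaged 373 ± 55.5 CPM in DU145 and 249.6 ± 32.6 CPM in PC3 (0.57 ± 0.083), a difference that was -0.0021 with the GC and length trend removed against all 12 libraries. UQCRC2, the other core protein, averaged 171 ± 10.4 CPM in DU145 and 206 ± 11.9 CPM in PC3 (-0.27 ± 0.054, adjusted p = 4.10e-04).

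UQCRB, the ubiquinone-binding subunit, was lower in DU145 and, within DU145, higher in GFP+ cells. It ranged over 19.9 to 41.2 CPM (median 23.2) in DU145, against 43.8 to 52.8 CPM (median 45.9) in PC3 (-0.88 ± 0.11, adjusted p = 7.43e-06). In DU145 it had 41.2, 23.4 and 29.2 CPM in GFP+ cells, against 21.4, 23.1 and 19.9 CPM in GFP- cells (0.51 ± 0.16, adjusted p = 0.0337). GFP+ replicate 1 was the highest DU145 library and GFP+ replicate 2 barely exceeded the highest GFP- library. Without GFP+ replicates 1 and 2 the rise was 0.45. UQCRHL, a near copy of UQCRH at 1.24 to 2.44 CPM, is uncertain because reads of the pair may be split.

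Complex IV contained no member past the threshold between the sorts in either line, with medians of -0.25 in DU145 and -0.14 in PC3 over 12 genes. The fold change lay below 0 in 9 of 12 genes in DU145 and in 12 of 12 in PC3. COX4I1, the regulatory subunit that binds ATP, had 218, 246 and 297 CPM in DU145 GFP+ cells and 313, 280.5 and 315 CPM in DU145 GFP- cells, where replicate 3 of GFP+ overlapped the GFP- libraries (-0.26 ± 0.11, adjusted p = 0.0936). Between the lines COX4I1 averaged 278 ± 38.9 CPM in DU145 and 268 ± 28.7 CPM in PC3, and its difference (0.051 ± 0.080), which did not pass, changed sign under quantile normalization. COX5A averaged 117 ± 15.7 and 96.0 ± 9.20 CPM (0.28 ± 0.079, adjusted p = 0.00469), and COX5B 72.0 ± 13.3 and 61.2 ± 9.19 CPM (0.23 ± 0.11, adjusted p = 0.0873), each in DU145 and PC3.

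Among subunits with tissue-specific forms, the widely expressed form had the higher level in both lines. COX6B1 averaged 141 ± 22.9 CPM in DU145 and 84.1 ± 13.8 CPM in PC3 (0.74 ± 0.11, adjusted p = 4.11e-05). COX6B2, its testis form, had 43 counts over the 6 DU145 libraries and 0 over the 6 PC3 libraries, where a count of 0 allows up to 0.026 CPM, so it was at least 18.2-fold higher in DU145 (floor of 3 counts over the 6 libraries, counting error only). COX7A2 averaged 71.4 ± 10.6 CPM in DU145 and 64.3 ± 5.92 CPM in PC3, while COX7A1, the heart and muscle form, had 2 and 4 counts over the libraries of the same lines. COX7A2L, which takes part in joining complexes III and IV, averaged 91.8 ± 12.5 CPM in DU145 and 70.1 ± 5.06 CPM in PC3 (0.38 ± 0.072, adjusted p = 2.76e-04). NDUFA4 averaged 94.8 ± 5.82 CPM in DU145 and 89.7 ± 2.92 CPM in PC3 (0.077 ± 0.051, adjusted p = 0.182), and NDUFA4L2, its hypoxia-induced relative, had 17 counts over the DU145 and 99 over the PC3 libraries. COX6A1 did not pass (0.089 ± 0.087), COX8A was higher in DU145 (0.65 ± 0.091, adjusted p = 1.64e-05) and COX7B lower (-0.62 ± 0.098, adjusted p = 5.73e-05).

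In complex V the catalytic subunits were higher in DU145 and the stalk subunit b was lower. ATP5B, the catalytic β subunit, had the highest level per kilobase of all 82 subunit genes in both lines, 757 CPM per kb in DU145 and 524 in PC3. It ranged over 1153 to 1603 CPM (median 1412) in DU145, against 850.3 to 1049 CPM (median 971) in PC3, with no overlap (0.52 ± 0.063, adjusted p = 4.61e-06). ATP5A1, the α subunit, ranged over 703 to 859 CPM (median 802) in DU145, against 416 to 459.6 CPM (median 419.9) in PC3 (0.90 ± 0.053, adjusted p = 3.16e-09). Per kilobase the ratio of ATP5A1 to ATP5B was 0.505 ± 0.0472 in DU145 and 0.388 ± 0.0222 in PC3 (SD, n = 6 each). ATP5F1, the b subunit of the stator stalk, ranged over 79.6 to 112 CPM (median 99.8) in DU145, against 181 to 201 CPM (median 188) in PC3, with every DU145 library below every PC3 library (-0.94 ± 0.060, adjusted p = 7.20e-09). ATP5SL, an assembly factor of complex I despite its symbol, averaged 107 ± 13.4 CPM in DU145 and 59.9 ± 5.87 CPM in PC3 (0.83 ± 0.086, adjusted p = 9.69e-07).

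Between the DU145 sorts ATP5B had 1153, 1235 and 1378 CPM in GFP+ cells, against 1603, 1447 and 1538 CPM in GFP- cells, with no overlap (-0.29 ± 0.090, adjusted p = 0.0334). Without GFP+ replicates 1 and 2 its fold change was -0.15. ATP5F1 had 109, 112 and 101 CPM in GFP+ cells, against 95.9, 98.3 and 79.6 CPM in GFP- cells (0.24 ± 0.084, adjusted p = 0.0488). It was past the threshold in 8 of 28 alternatives, and its fold change was 0.16 without GFP+ replicates 1 and 2. In PC3, ATP5H, the d subunit of the stalk, fell to 86.1, 98.3 and 82.0 CPM in GFP+ cells, against 115, 124 and 112 CPM in GFP- cells. The groups did not overlap (-0.40 ± 0.091, adjusted p = 0.0132), and without GFP- replicates 2 and 3 the fold change was -0.37. ATP5G1, ATP5G2 and ATP5G3 encode the same c-ring protein. ATP5G1 ranged over 82.4 to 117 CPM (median 107) in DU145 and 70.3 to 96.0 CPM (median 74.9) in PC3. ATP5G2 ranged over 262 to 331 CPM (median 317) in DU145 and 245 to 356 CPM (median 258) in PC3, and ATP5G3 over 89.7 to 126 CPM (median 108) in DU145 and 108 to 145 CPM (median 114) in PC3. Of these ATP5G1 passed between the lines (0.39 ± 0.096, adjusted p = 0.00234), and none passed between the sorts.

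Summed per kilobase, the lines differed most in the share of the subunit transcripts held by complex II. Complex I made up 29.9 ± 0.470% in DU145 and 34.0 ± 1.22% in PC3, complex II 11.4 ± 0.592% and 6.20 ± 0.331%, complex III 7.61 ± 0.143% and 9.42 ± 0.285%, complex IV 20.5 ± 0.446% and 20.2 ± 0.208%, and complex V 30.5 ± 0.261% and 30.2 ± 0.736%, each for DU145 and then PC3 (SD, n = 6 each, no test). These are shares of 1 total, in which SDHA weighs on the others. Complex I, with the smaller share in DU145, had summed levels of 3039 ± 445 CPM per kb in DU145 GFP+ and 3510 ± 198 in DU145 GFP- cells, against 2850 ± 87.7 in PC3 GFP+ and 3399 ± 454 in PC3 GFP- cells (SD, n = 3 each). Complex II held the larger and complex III the smaller share in DU145, and the shares of complexes IV and V overlapped between the lines. In PC3, complex I held 33.0 ± 0.573% in GFP+ and 35.0 ± 0.625% in GFP- cells, and complex II 6.45 ± 0.0613% in GFP+ and 5.94 ± 0.277% in GFP- cells (SD, n = 3 each), neither with overlap. Complex V held 30.8 ± 0.402% in PC3 GFP+ and 29.5 ± 0.260% in PC3 GFP- cells, also without overlap. Of the 81 members above the minimum and the 6 below it, 27 had fractional estimated counts in at least 1 library. Those of NDUFS7, NDUFA13, NDUFB11, ATP5E, ATP5S and ATP5J2-PTCD1 were fractional in all 12, and their values are uncertain to that extent.

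Other genes of the pathway were taken from 10 lists. Their counts stand against 27.1% of all genes called in DU145 (13.1% higher, 13.9% lower) and 9.44% in PC3 (4.17% higher, 5.27% lower). Between the lines they stand against 77.5% of all genes (38.3% higher, 39.2% lower in DU145). Among 11 electron carriers and subunits outside the symbol rule, USMG5 fell and none rose in DU145 GFP+ cells, 0 passed in PC3, and 3 were higher and 5 lower in DU145 than in PC3. CYC1, cytochrome c1 of complex III, averaged 568 ± 101 CPM in DU145 and 325 ± 41.1 CPM in PC3 (log2 fold change 0.80, adjusted p = 5.74e-06), and CYCS, cytochrome c, averaged 79.5 ± 7.25 and 109 ± 9.48 CPM in DU145 and PC3 (-0.46, adjusted p = 2.29e-05). Of the assembly factors tested, 1 rose and 1 fell of 16 for complex I, 0 rose and 2 fell of 10 for complexes II and III, 3 rose and 1 fell of 23 for complex IV and 0 passed of 4 for complex V in DU145 GFP+ cells. In PC3 the 1 that passed was COX19, an assembly factor of complex IV, which rose to 10.2 ± 1.14 CPM in GFP+ cells, against 7.10 ± 0.545 CPM in GFP- cells (adjusted p = 0.0423). BCS1L, which inserts the Rieske protein into complex III, fell in DU145 GFP+ cells to 45.2 ± 5.28 CPM, against 56.9 ± 3.50 CPM in GFP- cells (adjusted p = 0.0271; 0.0566 with the GC and length trend removed).

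Among 13 regulators of mitochondrial biogenesis, 2 rose and 2 fell in DU145 GFP+ cells and 0 passed in PC3. POLRMT, the mitochondrial RNA polymerase, fell to 199 ± 24.3 CPM in DU145 GFP+ cells, against 288 ± 27.1 CPM in GFP- cells (adjusted p = 0.00515), and GABPA, an ETS factor known for binding promoters of respiratory genes, rose to 12.9 ± 3.73 CPM in GFP+ cells, against 6.56 ± 1.15 CPM in GFP- cells (adjusted p = 0.0218). With the GC and length trend removed, the GABPA log2 fold change was 0.20 in place of 0.94 and was no longer called (adjusted p = 0.211). Of 19 genes of the tricarboxylic acid cycle and pyruvate dehydrogenase, 3 rose and 6 fell in DU145 GFP+ cells, 0 rose and 2 fell in PC3 GFP+ cells (PC and PDHA1), and 10 were higher and 6 lower in DU145 than in PC3. IDH2, mitochondrial isocitrate dehydrogenase, averaged 65.6 ± 12.4 CPM in DU145 and 24.8 ± 4.71 CPM in PC3 (adjusted p = 5.58e-09). Of 9 carriers of ADP, phosphate and pyruvate, 3 fell in DU145 GFP+ cells (VDAC1, SLC25A5, VDAC2) and 1 in PC3 GFP+ cells (MPC2). The 77 mitochondrial ribosomal protein genes had 5 higher and 14 lower and a median of -0.20 in DU145 GFP+ cells, and 0 higher and 2 lower and a median of -0.070 in PC3 GFP+ cells. The 78 cytosolic ribosomal protein genes had 1 higher and 5 lower with a median of -0.18 in DU145, and 0 of either with a median of -0.15 in PC3. With the GC and length trend removed, the DU145 counts were 1 higher and 23 lower for the mitochondrial ribosomal genes, 0 and 30 for the cytosolic ones, 0 and 9 for the tricarboxylic acid cycle and pyruvate dehydrogenase, 0 and 6 for the carriers and 0 and 4 for the regulators, against 23.1% of all genes. No test compared these lists with the subunit genes. Estimated counts of POLRMT, VDAC2 and MPC2 were fractional in all 12 libraries. Those of PDHA1 were fractional in 10, of GABPA in 6 and of SLC25A5 in 2, and the values of these genes are uncertain to that extent.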

How the data were processed

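RNA-seq of 12 sorted libraries gave 1 deposited table of log2 values for 18950 genes. Per the submitters' processing notes, STAR and DESeq2 were used; the sources used here name no build, annotation or counting tool. As deposited by the authors, a value is the log2 of a count plus 0.5 divided by the scaled library total, a scale read from the values themselves, so that its linear form is a CPM. Counts estimated from this scale were whole within 0.01 for a median of 86.9% of a library's genes, and voom on them, an alternative, called 3266 genes in DU145, 1259 in PC3, 1983 for the difference and 9729 between the lines.

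Genes at 1 CPM or more in at least 3 of 12 libraries (12527) were fitted with limma 3.58.1 in R 4.3.3 on 4 group means (eBayes with trend, 8 residual degrees of freedom), two-sided, with Benjamini-Hochberg adjustment over all of them and a threshold of 0.05. A count of 0 was given a limit of 3 counts, which covers counting error only. GC content and median transcript length came from GENCODE, matched by gene ID, and their trend was removed with loess (span 0.4). Promoters came from the RefSeq table. Members, lists and alternatives were chosen with earlier results of these data known. Named members are the catalytic and core subunits, isoform pairs, and up to 6 members per direction and comparison with the smallest p; up to 3 genes of each other list were named. Deviations of GFP+ and GFP- libraries with the same number correlated at -0.020, 0.091 and 0.21 in DU145 and 0.059, 0.20 and 0.14 in PC3, so the numbers were not taken to pair them. Some items among the members and markers are not reported here.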

Additional observations from a re-analysis of the deposited data

Results flagged for a closer look

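The sort effect of 2 members differed between the lines by limma's test of the difference itself (DU145 minus PC3). For NDUFB1 the difference of the log2 fold changes was 0.88, with 0.052 in DU145 and -0.83 in PC3. For NDUFA9 it was -0.50, with -0.31 in DU145 and 0.19 in PC3. The NDUFB1 difference passed in 22 of 26 alternatives. It missed the limma threshold with equal medians (adjusted p = 0.0537), under quantile normalization (0.146) and with 1 of the libraries left out (0.0563). Its remaining miss was the fit without PC3 GFP- replicates 2 and 3. The NDUFA9 difference passed in 23 of 27. It missed with either of 2 libraries left out (the higher limma adjusted p of these was 0.0538). It also missed in both fits that leave a single library in a group. At a threshold of 0.01, which these counts score at 0.05, neither difference passed. Without DU145 GFP+ replicates 1 and 2, which leaves GFP+ replicate 3 alone, the differences were 1.15 for NDUFB1 and -0.39 for NDUFA9. Without PC3 GFP- replicates 2 and 3, which leaves GFP- replicate 1 alone, the differences were 0.90 for NDUFB1 and -0.48 for NDUFA9.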

How the results depend on the processing

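Percentages in brackets are the share of all genes called in the same setting. With 81 members tested, the DU145 sort gave 9 calls (27.1%). It gave 12, all lower, with equal medians (28.9%), 5 of 87 with no minimum level (15.4%) and 14 of 76 with a minimum log2 value of 4 (36.2%). There were 2 under quantile normalization (18.0%), 3 without the eBayes trend (19.7%) and 0 at an adjusted p under 0.01 (6.26%). With the GC and length trend removed, also against all 12 libraries, 24 were called, 29.6% of the members (23.1%). The PC3 sort gave 3 calls (9.44%), against 1 with equal medians (7.35%), 5 under quantile normalization (9.93%) and 1 at 0.01 (4.20%). With the GC and length trend removed in either way it gave 5 (19.1% and 19.0%). The difference gave 2 calls (15.9%), against 1 of 76 at a minimum of 4 (19.3%), 4 under quantile normalization (13.1%) and 0 at 0.01 (5.65%). With the trend removed in either way it gave 13 (25.3% and 25.2%). Leaving out each library in turn gave 1 to 41 calls in DU145 (7.15% to 44.7%) and 1 to 6 in PC3 (5.27% to 11.9%). It gave 1 to 10 for the difference (9.14% to 29.2%) and 46 to 52 between the lines (74.4% to 78.3%). The cause of these changes was not tested.

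With the replicate number as a block, there were 21 calls in DU145 (38.7%), 7 in PC3 (12.4%), 4 for the difference (26.5%) and 52 between the lines (79.3%). With the block and the trend removed there were 38 (27.8%), 5 (21.4%), 17 (29.4%) and 60 (82.7%), and the 38 were 46.9% of the members. In PC3 every library correlated best with its own number, in DU145 not every one did, a hint from the data and not the design.

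Among values past the threshold in at least 1 of the settings compared, signs reversed for NDUFS1 in DU145 (-0.20 with the trend removed, with or without the block, and against all libraries) and UQCRFS1 in DU145 (-0.25 with the trend removed and the block). Between the lines, removal against all 12 libraries reversed NDUFS1 (0.016), NDUFV1 (-0.082), UQCRC1 (-0.0021), COX4I1 (-0.19), COX6A1 (-0.20) and ATP5G2 (-0.19), and quantile normalization reversed COX4I1 (-0.15). Of the values of named members, 3675 kept direction and side of the threshold, 146 newly passed, 147 no longer passed, these 11 reversed, and 197 changed sign while past the threshold in neither setting. Members below 1 CPM are limited by depth, where 3 counts correspond to 0.130 to 0.233 CPM.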

Other observations

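The genes near SDHA on chromosome 5 were looked at after its difference between the lines was seen. All 15 other tested genes within 1 Mb were higher in DU145 than in PC3, against 38.3% of all genes, with a median log2 difference of 1.24. Some are near 0 counts in PC3, so no upper end is given. Neighbours of 3 more members were counted in the same way. Near NDUFA5, 0 were higher and 2 lower of 2, near NDUFB1 6 higher and 4 lower of 12, and near NDUFA9 2 higher and 4 lower of 7. Of the genes near SDHA, 3 are given here. CCDC127 averaged 44.6 ± 2.57 CPM in DU145 and 18.9 ± 2.30 CPM in PC3, PDCD6 196 ± 11.3 CPM in DU145 and 65.1 ± 2.78 CPM in PC3, and EXOC3 103 ± 12.6 CPM in DU145 and 59.5 ± 6.73 CPM in PC3 (SD, n = 6 each).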
